A study of Homo sapiens with 4 samples.

Results

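The 10 genes described here are stemness factors of neural stem cells and gliomas, chosen by name from the 60617 genes listed for each library. They are the transcription factors SOX2, SOX4, SOX9, SOX11 and POU3F2, the intermediate filament gene NES, the surface protein gene PROM1, the RNA-binding protein genes MSI1 and MSI2, and the aldehyde dehydrogenase gene ALDH1A3. Poly-A RNA was sequenced from the established human glioblastoma line U87MG, kept as spheres in DMEM/F12 with EGF and bFGF (20 ng/ml each), N2 and 2% B27. Spheres given abemaciclib, a small molecule that inhibits the cell cycle kinases CDK4 and CDK6, and spheres left untreated were collected at day 14, with 2 libraries in each group. The labels name no introduced allele, and both groups had the same medium. Neither the drug dose nor any vehicle is given in the sources used here. Nothing in the labels says that the libraries came from separate cultures, so the p-values cover the spread among these 4 libraries alone, and that spread may be technical.

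In the developing brain several of these factors, such as SOX2 and NES, mark dividing cells without a neuronal or glial fate yet. SOX2 and SOX9 are HMG-box transcription factors of neural stem and glial progenitor cells, SOX4 and SOX11 are related factors of neuronal precursors, and POU3F2 (BRN2) is a POU-domain factor. Glioma cells with stem cell features are commonly recognised by SOX2, nestin (NES), CD133 (PROM1), Musashi proteins and aldehyde dehydrogenase activity, and growth as spheres in serum-free medium is a usual way to enrich them.

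The promoters of NES, MSI2 and SOX2 are shown first because they come from an abundant gene that fell, a moderately expressed gene that fell slightly and a near-undetected gene that rose. The sequences are from RefSeq on GRCh38.p14, 5′ to 3′ on the gene's strand, and lie just before the annotated start of transcription. NES is on the minus strand (chr1:156677408-156677657), MSI2 on the plus strand (chr17:57255601-57255850) and SOX2 on the plus strand (chr3:181711675-181711923). Capitals mark matches, on either strand, to the E2F core GGCGGGA, the cell cycle homology region TTTGAA, the CCAAT box CCAAT, the GC box GGGCGG or the nuclear receptor motif AGGTCA.
NES: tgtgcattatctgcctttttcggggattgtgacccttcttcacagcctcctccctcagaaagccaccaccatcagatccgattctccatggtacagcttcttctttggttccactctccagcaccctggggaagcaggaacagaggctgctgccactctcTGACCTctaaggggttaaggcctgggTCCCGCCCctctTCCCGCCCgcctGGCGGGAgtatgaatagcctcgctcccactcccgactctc
MSI2: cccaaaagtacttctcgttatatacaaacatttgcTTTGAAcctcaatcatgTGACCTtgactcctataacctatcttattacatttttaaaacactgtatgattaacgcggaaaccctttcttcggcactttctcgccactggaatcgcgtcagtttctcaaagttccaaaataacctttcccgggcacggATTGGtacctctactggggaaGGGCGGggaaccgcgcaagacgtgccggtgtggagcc
SOX2: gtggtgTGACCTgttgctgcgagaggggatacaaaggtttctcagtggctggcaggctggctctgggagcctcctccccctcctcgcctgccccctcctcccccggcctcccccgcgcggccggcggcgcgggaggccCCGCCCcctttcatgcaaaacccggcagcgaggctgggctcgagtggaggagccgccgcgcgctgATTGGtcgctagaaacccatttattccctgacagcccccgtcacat
The NES window held 3 matches to the E2F core, at 64, 52 and 40 bases before the start (the first base of each). Those at 64 and 52 overlap matches to the GC box, which holds much of the same letters. MSI2 had the only match to TTTGAA among the member promoters searched, at 215 bases before the start. SOX2 held a CCAAT box at 47 and a GC box at 112 bases before the start, and no E2F core in this window. Of 35116 RefSeq promoter windows of 250 bases, 13.5% held GGCGGGA, 13.3% TTTGAA, 32.0% CCAAT, 42.6% GGGCGG and 12.1% AGGTCA. Entries were found for 7 of the 10 genes, and SOX9, SOX11 and MSI1 had none in the table used. The ALDH1A3 window, not printed, had a GC content of 82.4% and 38 CpG dinucleotides, against medians of 58% and 11 over all windows. A match describes letters in the sequence and not binding of a factor.

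The 10 genes divided into well detected ones and ones with few or no counts. Levels are CPM, expected counts scaled by the library total. NES, MSI2, SOX4 and ALDH1A3 were above 10 CPM in every library, with 12.01 CPM as their lowest value, and SOX9 reached 16.6 CPM but dropped to 9.48 CPM in the second abemaciclib library. SOX2, SOX11, PROM1, MSI1 and POU3F2 stayed under 2 CPM in every library, and their highest value was 1.13 CPM. A level of 3 counts in a library, the limit that a count of 0 allows, corresponds to 0.0898 to 0.127 CPM. SOX2 untreated, MSI1 in the first abemaciclib library, and POU3F2 and SOX11 in every library were at or below that limit.

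**Figure D1:**
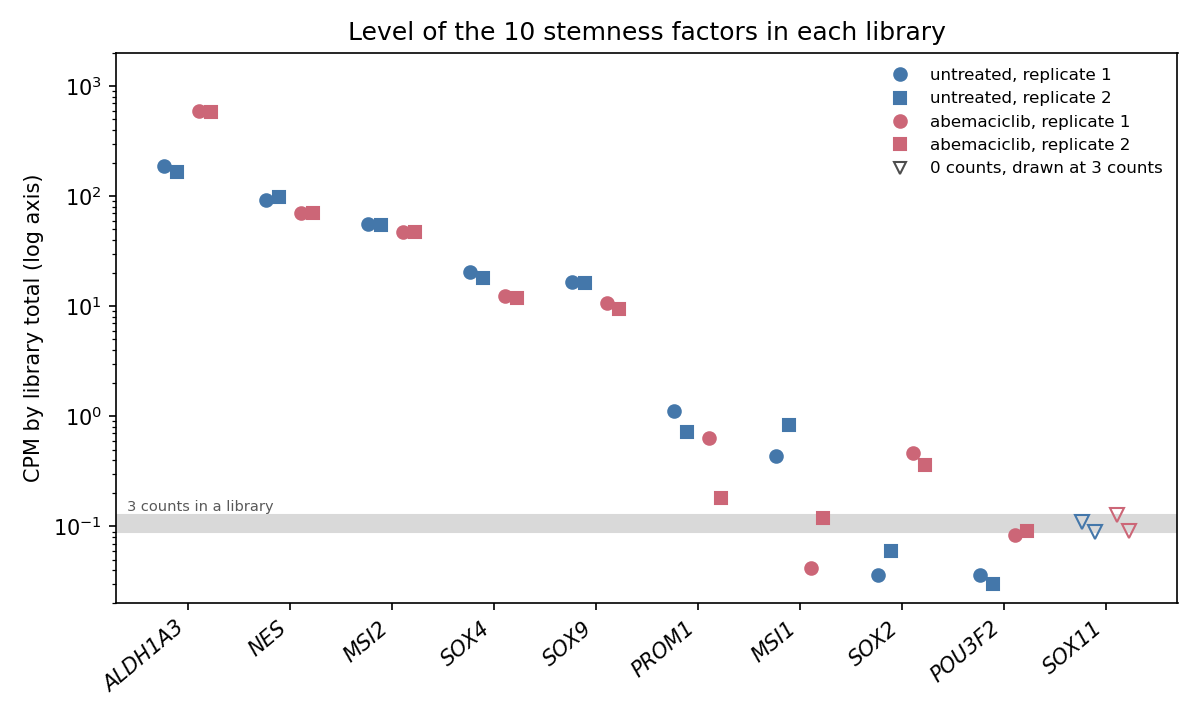
Level of each of the 10 genes in the 4 libraries, in CPM on a log axis, with untreated and abemaciclib libraries in separate colours and the level of 3 counts in a library drawn for reference. ALDH1A3 and SOX2 are the tested genes higher in the abemaciclib libraries. SOX11, with 0 counts, is drawn as open triangles at the level of 3 counts, which are not measured values.

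The filter on low counts (0.329 CPM in at least 2 libraries) left 8 of the 10 genes to test. Of these, 2 were higher and 6 lower after abemaciclib by edgeR's quasi-likelihood test at an adjusted p under 0.05. Over all 17207 tested genes the same test called 77.3%, with 38% higher and 39.3% lower, so calls were the common outcome in this comparison. For each of the 8, the untreated and abemaciclib values did not overlap, 2 higher and 6 lower. Over all tested genes that held for 88.2%, with 46% higher and 42.2% lower. SOX2 passed the filter only through its abemaciclib libraries and MSI1 only through its untreated libraries. PROM1 reached the filter level in both untreated libraries and 1 abemaciclib library. The differences of SOX2 and MSI1 therefore follow in part from passing, and the counts above are given as a description. The median log2 fold change was -0.61 over the 8 genes and -0.01 over all tested genes.

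**Figure D2:**
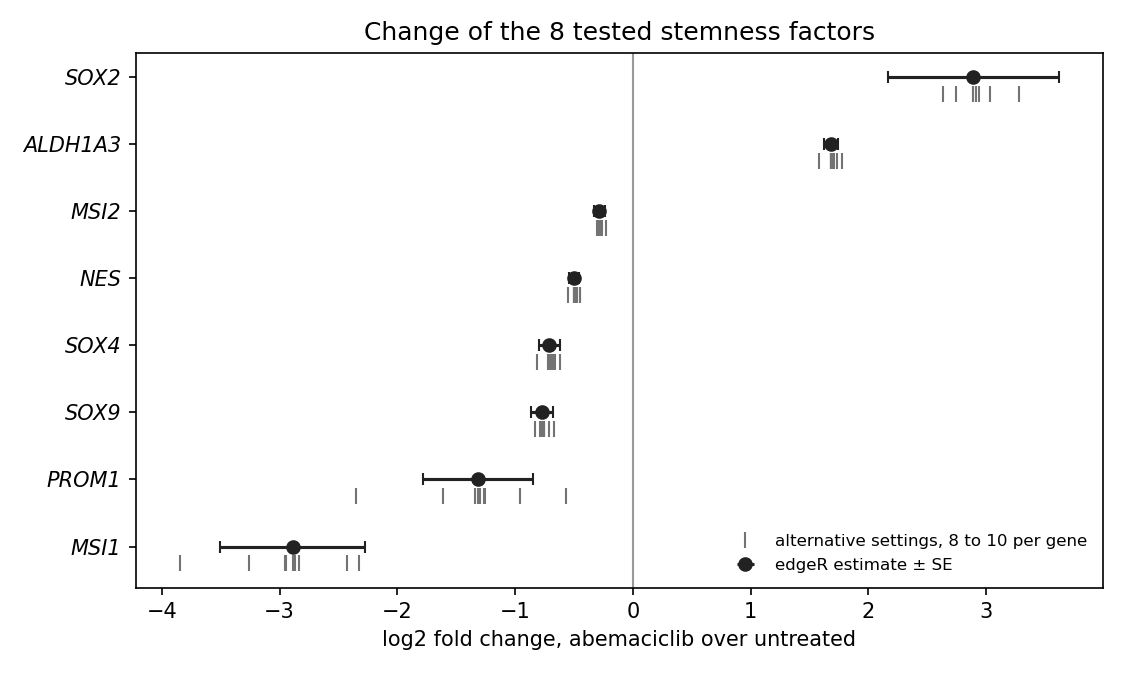
Log2 fold change of the 8 tested genes, abemaciclib minus untreated, with bars of 1 standard error derived from the edgeR F statistic. Grey ticks are the estimates under the alternative settings. ALDH1A3 at 1.68 and SOX2 at 2.89 lie above 0 and the other 6 below, from -0.29 for MSI2 to -2.89 for MSI1.

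Gene positions from here on are those of GENCODE release 29 on GRCh38. SOX2 (chr3:181711924-181714436, plus strand), a core factor of neural stem cell self-renewal, rose from the limit of detection to a low level. The untreated spheres gave 1 and 2 counts and the treated spheres 11 and 12, which is 0.0364 and 0.0598 CPM against 0.464 and 0.361 CPM. Both abemaciclib libraries lay above both untreated libraries. The ratio of scaled counts, abemaciclib over untreated, was 7.90 with an exact 95% interval of 2.39 to 41.1 that covers counting error only. The fitted log2 fold change was 2.89 ± 0.73 (SE, adjusted p = 0.000666), but with DESeq2 the adjusted p was 0.0597. Even after the rise, 23 counts in total stood behind the level, so its size is poorly fixed. SOX2-OT, a noncoding gene that overlaps SOX2 on the same strand without sharing an exonic base, had expected counts of 2 and 5.13 untreated and 12 and 18.5 after the drug. It passed the filter only through the abemaciclib libraries, so its values are a description.

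SOX4 (chr6:21592768-21598619, plus strand), a factor of neuronal precursors that is also common in gliomas, fell. It measured 20.6 and 18.0 CPM in the untreated libraries and 12.5 and 12.01 CPM in the abemaciclib libraries, so the groups were well apart. The means were 19.3 ± 1.85 and 12.2 ± 0.316 CPM (SD, n = 2), and the log2 fold change was -0.71 ± 0.09 (SE, adjusted p = 1.91e-08). SOX9 (chr17:72121020-72126420, plus strand), a factor of glial fate and neural stem cell maintenance, also fell. Its levels were 16.6 and 16.3 CPM untreated and 10.7 and 9.48 CPM after abemaciclib, and the log2 fold change was -0.77 ± 0.09 (adjusted p = 1.25e-08). SOX9-AS1, which runs antisense to SOX9 without sharing exonic bases, had 23 and 12 counts untreated and 6 and 2 after the drug. It passed the filter only through the untreated libraries, so these values too are a description.

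SOX11 (chr2:5692667-5701385, plus strand) had 0 counts in all 4 libraries, which allows up to 0.0898 to 0.127 CPM, depending on library. POU3F2 (chr6:98834592-98839470, plus strand), a factor of neural progenitor and glioma stem-like states, had 1 and 1 counts untreated and 2 and 3 after the drug. Its ratio of scaled counts was 2.58, with an exact 95% interval of 0.422 to 27.1, so no difference was detectable at this depth.

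Other SOX family genes that passed the test were lower after the drug. Of 16 other SOX genes, 6 passed the filter, 4 fell and 0 rose, with a median log2 fold change of -0.73. SOX12, the most abundant SOX gene per length, fell from 43.2 and 46.0 CPM to 27.6 and 27.3 CPM, a log2 change of -0.76 ± 0.06. SOX13 (-0.70 ± 0.07) and SOX5 (-1.65 ± 0.25) fell as well. SOX30, counted among the 4 and named after its values were seen, went from 35 counts to 1. It passed the filter only through its untreated libraries, so its fall is a description. SOX15 (0.31 ± 0.19) and SOX7 (-0.19 ± 0.30) did not pass the test. Per kilobase of exon (CPM per kb), SOX2 made up 0.0602% and 0.0992% of the summed level of the 20 SOX genes untreated and 1.098% and 0.911% after the drug.

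Most other transcription factors of neural progenitors that were tested fell. Of 37, 28 were tested, with 19 lower and 5 higher and a median log2 change of -0.53. POU2F2, a POU factor, had the highest level of the list and fell (-1.43 ± 0.03). NFIX (-0.17 ± 0.04) fell slightly, and NR2F1 (0.13 ± 0.04) rose slightly. SALL2 and OLIG2, which with SOX2 and POU3F2 form a known set of glioma stem cell reprogramming factors, were looked at after their values were seen. SALL2 was at 14.0 and 12.8 CPM untreated and 1.73 and 1.72 CPM after the drug (-3.01 ± 0.14). OLIG2 was at 4.07 and 5.48 CPM untreated and 2.62 and 2.32 CPM after it (-1.03 ± 0.19).

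NES (chr1:156668763-156677397, minus strand) encodes nestin, an intermediate filament protein of dividing neural progenitors, and was the second most abundant of the 10 genes. It measured 92.3 and 99.3 CPM untreated and 71.1 and 69.9 CPM after abemaciclib, with no overlap between groups. The means were 95.8 ± 4.98 and 70.5 ± 0.841 CPM (SD, n = 2) and the log2 fold change was -0.50 ± 0.04 (SE, adjusted p = 2.87e-12). VIM, the filament partner with which nestin assembles, fell from 6140 and 5561 CPM to 4401 and 4493 CPM (-0.45 ± 0.04). Of 18 other filament genes and filament partners 11 were tested, of which 5 rose and 5 fell. LMNA (0.25 ± 0.03), LMNB2 (0.55 ± 0.03) and the linker gene PLEC (0.37 ± 0.03) were among those that rose, and GFAP had 15 counts untreated and 14 after the drug.

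PROM1 (chr4:15963076-16084378, minus strand) encodes CD133, a pentaspan membrane glycoprotein widely used to sort glioma stem cells. It was detected at 31 and 24 counts untreated and 15 and 6 counts after abemaciclib, or 1.13 and 0.718 CPM against 0.633 and 0.181 CPM. The lowest untreated library lay just above the highest abemaciclib library. The log2 fold change was -1.32 ± 0.47 (SE, adjusted p = 0.0127). The call was lost with DESeq2 (adjusted p = 0.186), without untreated replicate 1 (0.153) and without abemaciclib replicate 2 (0.321), and the estimate ranged from -2.35 to -0.57 over the alternatives. FGFBP2, a neighbouring gene that shares 166 exonic bases with PROM1 on the same strand, went from 22 and 24 counts to 1 and 8, and passed the filter only through its untreated libraries. Reads that lie wholly in the shared bases cannot be told apart between the genes. The expected counts of PROM1 and FGFBP2 were whole in every library, so none was recorded as split between them.

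The Musashi genes encode RNA-binding proteins that hold target messages, NUMB among them, in check in neural stem cells. MSI1 (chr12:120341330-120369180, minus strand) was scarce and fell further, from 12 and 28 counts to 1 and 4, or from 0.437 and 0.838 CPM to 0.0422 and 0.120 CPM. The untreated level was 7.76 times the treated level by scaled counts, with an exact 95% interval of 3.06 to 25.2, and the fitted log2 fold change was -2.89 ± 0.62 (adjusted p = 0.000102). Counts this low move with each library: the estimate was -3.85 without abemaciclib replicate 2 and -2.33 without untreated replicate 2. MSI1 passed the filter only through its untreated libraries, so its fitted change is a description. With the filter of at least 1 CPM in 2 libraries it was not tested. MSI2 (chr17:57255851-57684685, plus strand), its close relative, was well detected and fell slightly. It measured 56.0 and 54.9 CPM untreated and 46.9 and 47.4 CPM after the drug. The log2 fold change from the TMM-scaled fit was -0.29 ± 0.05 (adjusted p = 2.66e-06), a fitted fall of 1.22-fold. The gap between the groups was larger than the spread within either.

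Among 24 other RNA-binding proteins of neural progenitors 20 were tested, with 13 lower, 4 higher and a median log2 change of -0.26. PTBP1, a splicing repressor that is lost as neurons form, fell (-0.62 ± 0.03), as did HNRNPA1 (-0.25 ± 0.03) and HNRNPA2B1 (-0.23 ± 0.03), while RBFOX2 (-0.07 ± 0.03, adjusted p = 0.0678) did not pass. In the Numb and Notch list, 18 of 20 genes were tested, 13 fell and 1 rose, with a median of -0.92. NUMB, an antagonist of Notch and a classical Musashi target, fell from 534 and 531 CPM to 285 and 286 CPM (-0.95 ± 0.03). NOTCH3 fell from 757 and 753 CPM to 185 and 184 CPM (-2.08 ± 0.03) and RBPJ, the DNA-binding partner of Notch, by 0.90 on the log2 scale, while NOTCH2 (0.02 ± 0.03, adjusted p = 0.481) did not pass.

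ALDH1A3 (chr15:100877714-100916626, plus strand), which oxidises retinaldehyde to retinoic acid and accounts for much aldehyde dehydrogenase activity in mesenchymal gliomas, was the most abundant of the 10 genes and rose. It measured 189 and 164.9 CPM in the untreated libraries and 594 and 582 CPM in the abemaciclib libraries, so all treated values were far above all untreated values. The means were 177 ± 17.0 and 588 ± 8.52 CPM (SD, n = 2). The log2 fold change from the TMM-scaled fit was 1.68 ± 0.06 (SE, adjusted p = 1.29e-06), a fitted rise of 3.21-fold. AC015712.2, an antisense gene that covers 27.5% of the exonic bases of ALDH1A3, had 4 and 5 counts untreated and 9 and 14 after the drug, against 5195 and 5511, then 14076 and 19347, for ALDH1A3. Without the strand setting of the counting, reads from the shared bases cannot be told apart by position. The expected counts of both genes were whole in every library, so none was recorded as split between them.

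Most other aldehyde dehydrogenases that were tested rose. Of 18 other family genes 15 were tested, of which 10 rose and 3 fell, with a median log2 change of 0.44. The 10 include ALDH5A1, which had 0 counts untreated and 22 after the drug. It passed the filter only through its abemaciclib libraries, so its rise is a description. ALDH4A1 rose from 2.40 and 2.51 CPM to 19.7 and 20.7 CPM (2.98 ± 0.12), ALDH16A1 from 3.93 and 4.40 CPM to 19.5 and 19.9 CPM (2.18 ± 0.11), and ALDH9A1 from 50.2 and 53.3 CPM to 144 and 146 CPM (1.43 ± 0.04). ALDH1B1, ALDH7A1, ALDH2, ALDH3A2, ALDH3B1 and ALDH6A1 rose by log2 changes between 0.29 (ALDH6A1) and 0.79 (ALDH1B1). ALDH18A1 (-0.44 ± 0.04) and ALDH1L2 (-0.59 ± 0.05) fell, as did ALDH8A1 (-1.49 ± 0.42), named after its values were seen; ALDH1A2 (-0.58 ± 0.29, adjusted p = 0.0704) did not pass, and ALDH1A1, the other family gene often used as a stem cell marker, did not pass (0.482 against 0.542 CPM on average, adjusted p = 0.735). Per length, ALDH1A3 made up 26.1% and 23.2% of the summed family level untreated and 43.0% and 42.1% after the drug. It overlapped with ALDH18A1 in the untreated libraries and was the highest of the family in both abemaciclib libraries.

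**Figure D3:**
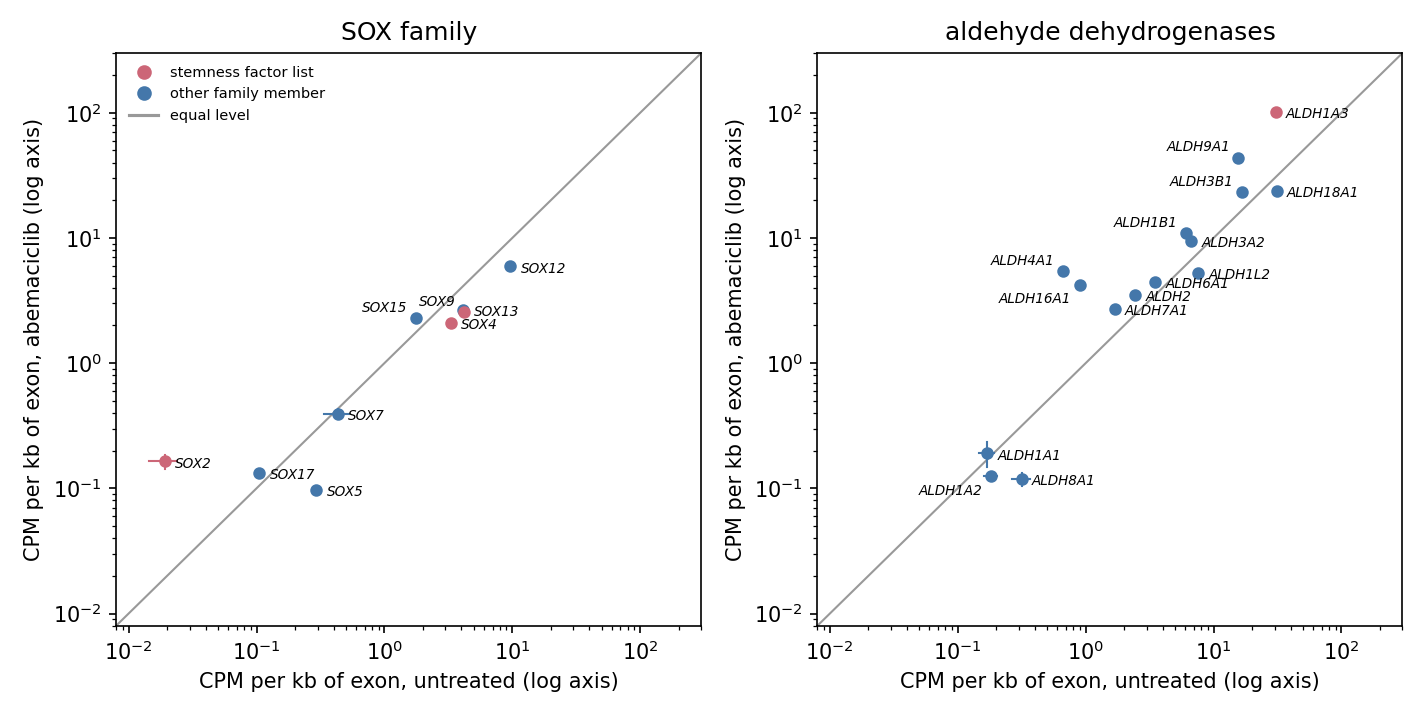
Mean level per kilobase of exon (CPM per kb, log axis) of SOX family and aldehyde dehydrogenase genes in the untreated and abemaciclib groups, for genes with at least 0.01 CPM per kb in both, with lines for the range of both libraries. ALDH1A3 moves from 30.7 to 101.9 CPM per kb and SOX2 from 0.0191 to 0.164 CPM per kb.

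Genes of the retinoic acid pathway, which uses the product of ALDH1A3, moved in both directions. Of 29, 23 were tested, with 9 higher and 12 lower and a median of -0.32. RARA, the retinoic acid receptor alpha, fell from 168 and 165 CPM to 42.8 and 45.8 CPM (-1.96 ± 0.04). TGM2, a transglutaminase gene, rose (0.97 ± 0.03), and RDH11 (-0.05 ± 0.03, adjusted p = 0.205) did not pass. Whether retinoic acid signalling changed was not tested.

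**Figure D4:**
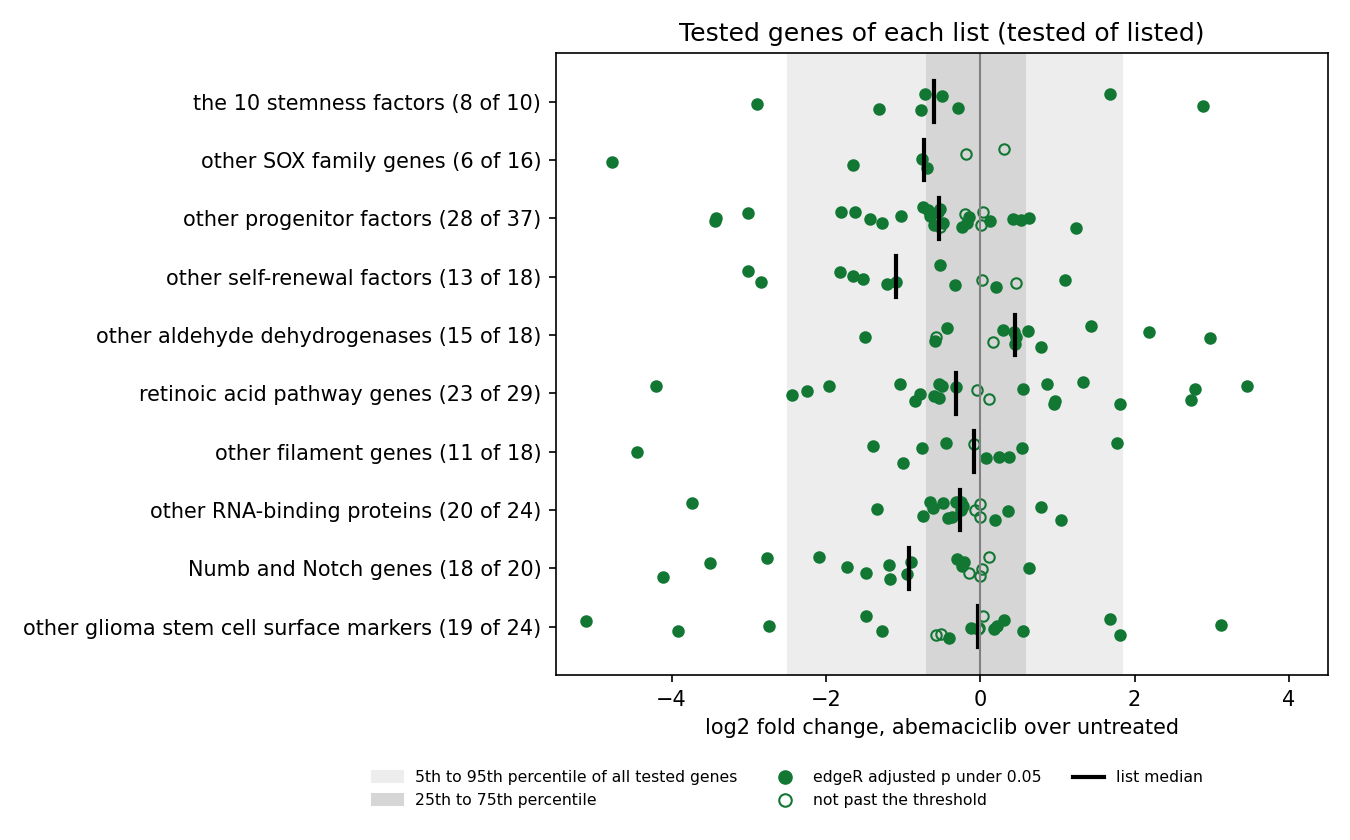
Log2 fold change, abemaciclib minus untreated, of each tested gene in the 10 genes and in the gene lists, 1 point a gene (filled where the test was passed, ALDH5A1 with 0 untreated counts not drawn), a bar at each list's median, and grey bands for the middle and outer range of all tested genes. The Numb and Notch genes have a median of -0.92, the other aldehyde dehydrogenases one of 0.44, and all tested genes one of -0.01.

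Per length, the order of the 10 genes in the untreated libraries was ALDH1A3 (30.7 CPM per kb), NES (17.2), SOX9 (4.18), SOX4 (3.30), MSI2 (2.58), MSI1 (0.206), PROM1 (0.124), SOX2 (0.0191) and POU3F2 (0.0068), with SOX11 at 0. MSI1 and PROM1 overlapped between libraries and were not told apart. After the drug MSI2 (2.19 CPM per kb) stood above SOX4 (2.09), and SOX2 (0.164) passed PROM1 and MSI1. MSI1 then overlapped with PROM1 and with POU3F2. ALDH1A3 lay above 92.5% of the tested genes untreated and 98.1% after the drug, NES above 86.1% and 80.5%, and SOX9 above 58.6% and 48.1%. SOX4 lay above 53.4% and 44.0% and MSI2 above 48.0% and 45.0%, in the middle of the tested genes. The lengths are those of merged GENCODE exons, 21479 bases for MSI2.

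Library totals ranged from 23684260 to 33418075 counts, and mitochondrially encoded genes held 4.27% and 4.66% of counts untreated and 11.8% and 11.7% after the drug. Proliferation markers summed to 355 and 337 CPM untreated and 260 and 247 CPM after it, with 9 of 12 lower. Astrocyte markers summed to 959 and 928 against 364 and 355 CPM, with 2 of 8 tested higher and 4 lower. GJA1 (means of 495 and 171 CPM) and ALDOC (278 and 27.8 CPM) were among the lower. SPARCL1 (2.68 ± 0.22) and SLC1A2 (0.51 ± 0.22) were the higher ones. Of the defining markers, GFAP, AQP4, S100B and ALDH1L1 held 15 counts or fewer in either group. Neuron markers summed to 137 and 140 against 345 and 330 CPM, with 5 of 10 tested higher and 3 lower. TUBB3 held the largest part of that sum, with means of 66.0 and 201 CPM. Those lower were SYP (-1.64 ± 0.26), SYT1 (-0.75 ± 0.11) and SLC17A7 (-4.50 ± 0.31). Fibroblast and pericyte markers summed to 11025 and 10678 against 5471 and 5358 CPM, with 3 of 11 tested higher and 6 lower. Oligodendrocyte markers summed to 95.8 and 97.6 against 178 and 181 CPM, with MOG, MAG, OPALIN and SOX10 at 0. CNP held most of that sum (90.4 and 91.5 against 167 and 169 CPM). Of 4 tested 3 were higher and 1, MYRF, lower (-3.42 ± 0.32). Immune markers summed to 198 and 200 against 148 and 144 CPM, with MS4A1 and AIF1 among those at 0. TMEM119 held most of that sum (186 and 188 against 141 and 138 CPM). Of 4 tested 3 were lower and 1, PTPRC, higher, at 7 counts untreated and 32 after the drug. PTPRC passed the filter only through its abemaciclib libraries. Endothelial markers summed to 26.9 and 29.03 against 30.1 and 30.5 CPM, but of 6 tested 3 were higher and 1 lower, with PECAM1 (-3.14 ± 0.18) down and KDR (0.83 ± 0.10) up. Epithelial markers summed to 20.2 and 18.5 against 11.4 and 11.2 CPM. KRT8 held most of that sum and fell from a mean of 15.7 to 6.22 CPM, while 3 of 6 tested markers were higher and 2 lower, with a median log2 change of 0.54. The part of these shifts in the values of the 10 genes was not tested, and in bulk RNA fewer cells of a type and less RNA per cell cannot be told apart.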

How the data were processed

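Poly-A RNA libraries were made with a stranded TruSeq kit, per the labels' protocols. The authors deposited expected counts per gene, 1 file a library, per the file headers. Reads were handled with RSEM 1.3.1 and STAR 2.7.2b on GRCh38, per the submitters' processing notes. Neither the annotation release nor the counting's strand setting is given in the sources used here. Reads that match several genes are split among them in an expected count: 6.13% to 6.70% of a library's values were fractional, but all 40 values of the 10 genes were whole.

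Expected counts were rounded and entered edgeR 4.0.16 (R 4.3.3, limma 3.58.1): filterByExpr by group, TMM scaling, the robust two-sided quasi-likelihood F test on group alone, and Benjamini-Hochberg adjustment over 17207 genes. Levels are CPM by library total, and fold changes come from the TMM-scaled fit. The SE of an edgeR log2 fold change is derived: its absolute value divided by the square root of the F statistic. Replicates differed by more than sampling noise (chi-square per degree of freedom 3.56 and 1.95). Intervals are exact (Clopper-Pearson, 95%) and, like the floor of 3 counts, cover counting error only. Lengths and overlaps are from GENCODE release 29 (96.4% of identifiers matched) and promoters from RefSeq. Besides the 10 genes, the text names tested SOX and aldehyde dehydrogenase genes with a mean of at least 1 CPM, and the 4 most abundant tested genes of each other list. A few genes within this rule are left unreported here. The members and lists were chosen with earlier results of these data known. Alternatives were other scalings, DESeq2 1.42.0, other filters, a replicate block and leaving out each library. The tests were tried on simulated data.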

Additional observations from a re-analysis of the deposited data

How the results depend on the processing

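Over 76 alternative fits of the fold changes of the 8 tested genes, 72 kept their direction and side of the threshold and 0 reversed. The call was lost in 4: SOX2 with DESeq2, and PROM1 with DESeq2, without untreated replicate 1 and without abemaciclib replicate 2. Fits in which a gene failed the filter are not counted. These were SOX2, PROM1 and MSI1 with the filter of 1 CPM in 2 libraries, and SOX2 without abemaciclib replicate 2. The number of the 10 genes that rose was 2, but 1 with DESeq2, 1 with a filter of at least 1 CPM in 2 libraries, and 1 to 2 when leaving out each replicate, since SOX2 was not tested without abemaciclib replicate 2. Immune markers that changed numbered 4, but 2 with DESeq2, 2 with the filter of 1 CPM, and 2 to 3 when leaving out each replicate. Epithelial markers that changed numbered 5, but 3 with the filter of 1 CPM. The labels do not say whether same-numbered libraries of the 2 groups belong together. Their deviations had a correlation of -0.00134 across genes. That value cannot decide the question, because counting noise alone also gives values near 0. With the replicate block 13093 genes changed in place of 13300, and among the 10 genes 2 rose and 6 fell, as without the block. The number of the 10 genes that fell was 5 with DESeq2, and 4 with the filter of 1 CPM, which left 5 of them to test. Over all genes DESeq2 called 10692 changed, out of 29186 that it fitted. The 8 tested genes did not overlap between groups on the TMM scale either, an alternative chosen after seeing the data. Without a filter on low counts, the log2 fold change of POU3F2 was 1.27 ± 1.57 (adjusted p = 0.576, edgeR). Depth limits SOX2, SOX11, POU3F2, MSI1 and PROM1, which had at most 1.13 CPM in any library.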

Other observations

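Surface markers used beside CD133 to enrich glioma stem cells moved in both directions. Of 24, 19 were tested, with 7 higher and 7 lower and a median log2 fold change of -0.03. CD44, the hyaluronan receptor and mesenchymal marker, fell from a mean of 1316 to 488 CPM (-1.48 ± 0.03), while MET, the receptor of hepatocyte growth factor, rose from 55.1 to 199.98 CPM (1.81 ± 0.04). CSPG4 (0.31 ± 0.04) rose slightly, and ITGB1 (0.03 ± 0.03, edgeR adjusted p = 0.366) did not pass the test.

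Other pluripotency and self-renewal factors mostly fell: of 18, 13 were tested, with 9 lower and 2 higher and a median of -1.09. ID1, an inhibitor of differentiation factors, went from 49.5 to 6.23 CPM (-3.01 ± 0.09), and MYC (-0.53 ± 0.04) and STAT3 (-0.33 ± 0.03) fell less. BMI1, a Polycomb subunit, rose from 21.3 to 25.5 CPM (0.21 ± 0.07).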
